A study of Mus musculus with 2 samples.

Results

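The open chromatin examined here surrounds 9 regulators of chondrocyte hypertrophy and osteoblast differentiation, the Runt-domain transcription factors Runx1, Runx2 and Runx3, their partner Cbfb, and Sp7, Mef2c, Hdac4, Dlx5 and Dlx6. The rule took each ATAC-seq peak that lay inside one of these genes or within 100 kb of it, with gene limits from GENCODE mouse release 21 on the mm10 assembly, and used no measured value. Overlapping peaks of the 2 femur ends were merged into regions, and 57 of the 32388 regions met the rule. They held 46 of the 28257 proximal peaks and 53 of the 27958 distal peaks. ATAC-seq marks open chromatin with a transposase, Tn5, which cuts accessible DNA and joins sequencing adapters to it.

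The groups were the proximal and the distal cartilaginous ends of the femur of mouse embryos at E15.5 (days of gestation) of the FVB background (strain FVBNJ), with no mutation or treatment in either group. A library was made from 50000 cells, released by collagenase from cleaned cartilage without the shaft. All cells of a pool came from 1 litter (8 embryos on average), so that values belong to pools and not to single animals. The sources give 2 biological replicates per end, but the deposited lists hold 1 set of positions per end, for peaks that passed a reproducibility filter across replicates, an irreproducible discovery rate (IDR) below 0.05, and give no height or score. Per the study's methods, the dissected ends kept the perichondrium and every chondrocyte zone but not the bone collar. Each end was therefore 1 sample, no difference between the ends could be tested, and intervals given below are 95% Wilson intervals that cover counting error only. A region was called shared where it held a peak of both lists and proximal only or distal only otherwise, so a region missing from a list had no reproducible peak there, which is not a measurement of closed chromatin. In bulk tissue, fewer cells of a type and less open chromatin per cell cannot be told apart. The cells carry the label chondrocytes. A peak within 1 kb of an annotated start was present at 10 of 11 chondrocyte marker genes, against 59.1% of coding genes. It was in both lists at 7 of them, Sox9, Col2a1 and Acan included. Sox5 had it in the proximal list only, Col9a2 and Comp in the distal list only, and Matn1 had none. The shares were lower for markers of other cells, at 2 of 8 for blood, 2 of 6 for vessels, 2 of 7 for muscle and 2 of 5 for epithelium, and their part in the results was not tested.

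Runx proteins bind DNA through the Runt domain, and Cbfb, which does not bind DNA itself, strengthens that binding. In growth plates, Runx2 together with Runx3 drives chondrocytes into hypertrophy, and Runx2 and then Sp7 are required for osteoblasts to form. Mef2c promotes hypertrophy, the histone deacetylase Hdac4 holds Mef2c and Runx2 back, and the homeobox factors Dlx5 and Dlx6 act in both lineages. Each Runx gene has a distal promoter, P1, and an internal one, P2, which give proteins with different amino termini.

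The following mouse sequences show Runx promoters with and without a peak, the stretch upstream of Runx2 P2, 5 regions called in a single list and, for its Runx and AP-1 cores, a shared region in Runx1. They were read from the GRCm38 reference (C57BL/6J, with the same chromosome sequences as mm10, whereas the mice were FVB), 5′ to 3′ on the strand of the named gene. Capitals mark matches to the Runx core TGTGGT and to the AP-1 core TGANTCA, the site of Fos and Jun dimers, on either strand. A match is a match of letters, not a bound site. The promoters come as the 250 bp upstream of a start without a peak, the covered Runx1 P2 start as 300 bp of the exon-free upstream part of its peak, the Dlx5 start as the whole of that part, and the other regions as their central 300 bp.
Runx1 P1, no peak, chr16:92826150-92826399, minus strand: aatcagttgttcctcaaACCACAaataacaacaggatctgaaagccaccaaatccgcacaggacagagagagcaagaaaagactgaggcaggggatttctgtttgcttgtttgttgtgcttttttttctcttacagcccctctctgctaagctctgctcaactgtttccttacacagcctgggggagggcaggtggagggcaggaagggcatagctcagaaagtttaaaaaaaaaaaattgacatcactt
Runx1 P2, shared peak, chr16:92697370-92697669, minus strand: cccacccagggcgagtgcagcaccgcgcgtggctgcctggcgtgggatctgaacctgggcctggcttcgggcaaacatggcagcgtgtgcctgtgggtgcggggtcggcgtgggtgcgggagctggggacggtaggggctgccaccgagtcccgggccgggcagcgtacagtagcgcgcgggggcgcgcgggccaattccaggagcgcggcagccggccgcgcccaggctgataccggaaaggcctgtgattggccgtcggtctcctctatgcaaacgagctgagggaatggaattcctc
Runx1 intron 5, shared, chr16:92653904-92654203, minus strand: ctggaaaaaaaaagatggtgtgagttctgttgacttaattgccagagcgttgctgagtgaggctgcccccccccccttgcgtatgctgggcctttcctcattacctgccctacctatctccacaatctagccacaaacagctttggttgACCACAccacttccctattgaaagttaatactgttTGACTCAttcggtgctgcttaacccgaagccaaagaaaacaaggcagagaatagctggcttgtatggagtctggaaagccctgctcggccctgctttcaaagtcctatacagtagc
Runx2 P1, no peak, chr17:44814798-44815047, minus strand: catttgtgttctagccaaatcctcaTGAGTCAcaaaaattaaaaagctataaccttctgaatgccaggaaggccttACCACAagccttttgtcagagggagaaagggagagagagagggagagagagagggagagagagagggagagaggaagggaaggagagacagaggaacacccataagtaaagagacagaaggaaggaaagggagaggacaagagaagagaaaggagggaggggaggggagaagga
Runx2 upstream of P2, shared, chr17:44738122-44738421, minus strand: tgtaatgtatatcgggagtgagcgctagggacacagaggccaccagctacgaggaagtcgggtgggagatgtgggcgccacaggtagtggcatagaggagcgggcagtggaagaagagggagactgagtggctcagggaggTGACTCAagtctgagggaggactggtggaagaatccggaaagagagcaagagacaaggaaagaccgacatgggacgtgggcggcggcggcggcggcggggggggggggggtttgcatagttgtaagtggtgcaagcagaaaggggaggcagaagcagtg
Runx2 intron 2, proximal only, chr17:44768401-44768700, minus strand: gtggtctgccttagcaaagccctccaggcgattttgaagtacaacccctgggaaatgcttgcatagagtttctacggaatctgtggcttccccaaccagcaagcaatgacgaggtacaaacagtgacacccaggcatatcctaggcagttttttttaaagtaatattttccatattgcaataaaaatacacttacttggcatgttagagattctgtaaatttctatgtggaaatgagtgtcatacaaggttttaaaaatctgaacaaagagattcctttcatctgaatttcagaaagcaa
Runx2 beyond the coding 3′ end, distal only, chr17:44602145-44602444, minus strand: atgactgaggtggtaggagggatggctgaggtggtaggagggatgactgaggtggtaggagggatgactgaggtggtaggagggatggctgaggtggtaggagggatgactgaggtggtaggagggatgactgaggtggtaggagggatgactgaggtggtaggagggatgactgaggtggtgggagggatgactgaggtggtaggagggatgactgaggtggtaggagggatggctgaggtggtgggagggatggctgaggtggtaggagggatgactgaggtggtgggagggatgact
Runx3 P2, no peak, chr4:135152246-135152495, plus strand: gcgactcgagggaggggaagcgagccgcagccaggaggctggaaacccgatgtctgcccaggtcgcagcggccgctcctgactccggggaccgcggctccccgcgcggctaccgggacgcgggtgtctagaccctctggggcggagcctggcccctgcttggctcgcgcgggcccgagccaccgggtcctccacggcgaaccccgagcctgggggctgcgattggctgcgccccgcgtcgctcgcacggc
Runx3 upstream of P1, proximal only, chr4:135095674-135095973, plus strand: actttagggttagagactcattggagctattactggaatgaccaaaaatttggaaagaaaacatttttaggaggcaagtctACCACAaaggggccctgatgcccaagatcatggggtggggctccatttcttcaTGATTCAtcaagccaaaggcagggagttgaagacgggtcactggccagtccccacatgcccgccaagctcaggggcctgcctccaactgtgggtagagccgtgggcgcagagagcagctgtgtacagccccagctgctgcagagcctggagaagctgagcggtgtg
Dlx5 start, distal only, chr6:6882086-6882237, minus strand: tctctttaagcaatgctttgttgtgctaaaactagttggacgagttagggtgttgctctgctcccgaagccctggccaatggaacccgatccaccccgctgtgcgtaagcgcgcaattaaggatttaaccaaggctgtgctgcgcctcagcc
Dlx5 upstream, distal only, chr6:6915041-6915340, minus strand: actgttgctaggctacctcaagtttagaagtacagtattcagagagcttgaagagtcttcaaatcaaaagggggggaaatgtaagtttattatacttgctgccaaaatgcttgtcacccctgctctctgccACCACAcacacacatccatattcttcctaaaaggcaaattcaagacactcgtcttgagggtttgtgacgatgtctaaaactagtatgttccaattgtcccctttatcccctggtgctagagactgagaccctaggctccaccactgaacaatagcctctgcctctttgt

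Most of the open chromatin around the 9 genes was present at both ends of the femur. Of the 57 regions, 42 were shared, which is 73.7% (61.0% to 83.4%) and near the 73.0% of all merged regions. Distal-only regions numbered 11, or 19.3% (11.1% to 31.3%), against 12.9% of all regions. Proximal-only regions numbered 4, or 7.02% (2.76% to 16.7%), against 14.1% of all regions. Both intervals include the value for all regions. In 41 of the 42 shared regions the proximal and distal peaks each overlapped by at least 50%, and the narrower peak was covered over at least 85.8% of its length.

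Sharing was counted separately near and far from gene starts. Within 1 kb of the start of a protein-coding gene there were 24 regions, of which 21 (87.5%, 69.0% to 95.7%) were shared, 1 (4.17%) was proximal only and 2 (8.33%) were distal only. The values for all such regions were 89.4%, 3.84% and 6.72%, in the same order. Farther from starts there were 33 regions, of which 21 (63.6%, 46.6% to 77.8%) were shared, 3 (9.09%, 3.14% to 23.6%) were proximal only and 9 (27.3%, 15.1% to 44.2%) were distal only. All regions of that kind gave 62.7%, 20.4% and 16.8%. The 15 single-end regions lay a median of 15524 bp from the nearest peak of the other list, with a range from 184 to 101237 bp, against a median of 22175 bp for all single-end regions.

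In windows of 100 kb, Cbfb had the most regions and Runx3 the fewest, but Cbfb did not have the most in other windows. Cbfb had 10 regions inside it or within 100 kb, Mef2c had 9, Sp7 had 8, Runx1 had 7, Runx2 and Hdac4 had 6 each, and Runx3 had 4. Dlx5 and Dlx6, which lie next to each other, had the same 7 regions. With 50 kb, Runx1 and Mef2c had 7 regions each, Cbfb had 6 and Runx3 again had the fewest, 2. With 200 kb, Sp7 had the most, 15, and Runx2 the fewest, 7. With 100 kb, the median over the 20807 protein-coding genes on autosomes was 5.00. Since long genes have long windows, counts were also set per 100 kb of window, where the median gene had 2.00 regions. On that scale Cbfb (4.04), Sp7 (3.80), Dlx5 (3.43), Dlx6 (3.41) and Mef2c (2.48) lay above the median gene, and Runx1 (1.65), Runx3 (1.55), Hdac4 (1.29) and Runx2 (1.16) lay below it. Runx2, the longest of the 9 genes, had the lowest density among them, and 25.7% of coding genes had a lower one. Many of the regions near Cbfb and Sp7 lay at the starts of other protein-coding genes, 6 of 10 and 7 of 8. All 9 regions near Mef2c and all 7 near Runx1 had a start of that gene as their nearest coding start. Noncoding starts were not counted there, and a region downstream of Mef2c lay at such starts.

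**Figure D1:**
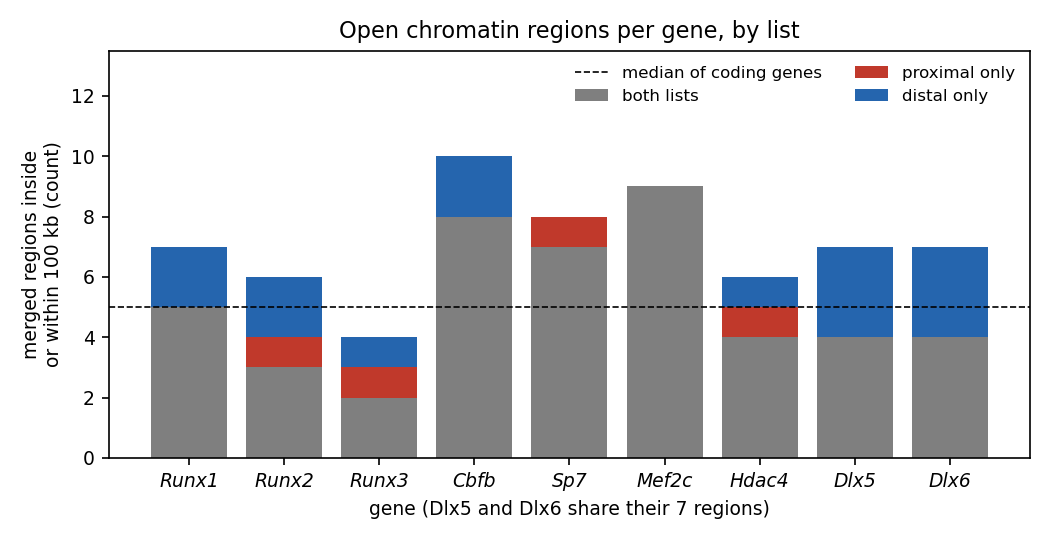
Bars give the number of merged open chromatin regions (vertical axis, count) inside or within 100 kb of each of the 9 genes (horizontal axis), split into regions in both lists, proximal only and distal only. Cbfb has 10 and Runx3 has 4, the dashed line is the median of 5.00 over coding genes, Mef2c alone has no single-end region, and the 7 regions of Dlx5 and Dlx6 are the same ones.

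At the starts of the genes, 6 of the 9 had a peak within 1 kb, against 59.1% of coding genes. Runx1, Cbfb, Mef2c, Hdac4 and Dlx6 had such a peak in both lists. Dlx5 had one in the distal list only, a state found at 2.77% of coding genes, and no member had one in the proximal list only, a state found at 1.37% of coding genes. Runx2, Runx3 and Sp7 had none in either list.

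The alternative promoters of the Runx genes differed. Annotated transcript starts within 1 kb of each other on a strand were grouped into a cluster. The 3 genes had 7 clusters, and only that of Runx1 P2 had a peak. Runx1 lies on the minus strand (chr16:92601466-92826149). Its P1 cluster, with 3 transcripts of which 2 are coding, had its most upstream start at 92826149 and no peak nearer than 122317 bp in the proximal list and 122287 bp in the distal list. Its P2 start, at 92697328 and 129 kb downstream of P1, was covered by a proximal peak of 454 bp (92697185 to 92697638) and a distal peak of 545 bp (92697166 to 92697710). Both peaks were narrower than the median peak of their list. The Runx1 promoter with a peak was thus the internal one at both ends of the femur. The P2 cluster has 2 transcripts, 1 of them coding. A further cluster 130 kb downstream of P1, with 2 transcripts of which 2 are coding, had no peak within 1 kb. It was 1060 bp from the proximal and 1041 bp from the distal peak at P2, so this call depends on the 1 kb limit.

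Runx2, also on the minus strand (chr17:44495987-44814797), had a peak at neither promoter. Its P1 cluster holds 7 transcripts, 4 of them coding, with the most upstream start at 44814797, and the nearest peaks were 36417 bp (proximal) and 36405 bp (distal) away. Its P2 cluster, 78.1 kb downstream with 6 transcripts, starts at 44736648. The nearest peaks to P2 lay 1248 bp (proximal, 44737896 to 44738656) and 1239 bp (distal, 44737887 to 44738466) upstream of it. They formed a shared region just beyond the 1 kb limit, so the call of no peak at P2 depends on that limit.

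For Runx3, on the plus strand (chr4:135120652-135177990), neither list had a peak near a start. P1, at 135120652, was 24588 bp from the nearest proximal peak and 45843 bp from the nearest distal peak. The P2 cluster begins at 135152496, 31.8 kb downstream, and was 56432 bp from the nearest proximal peak and 12059 bp from the nearest distal peak. The nearest peaks to the Runx3 promoters differed between the lists, whereas those of Runx1 and Runx2 were shared.

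Like Runx1, Mef2c had no peak at its most upstream coding start and a peak at a later one. Among the 7013 coding genes with several clusters of coding starts, 8.81% had this pattern. Across the 9 genes, 28 clusters were annotated and 7 had a peak. Counting only the 22 clusters with a coding transcript, 6 had a peak. Most Mef2c clusters, 8 of 9, and most Hdac4 clusters, 6 of 8, had none.

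**Figure D2:**
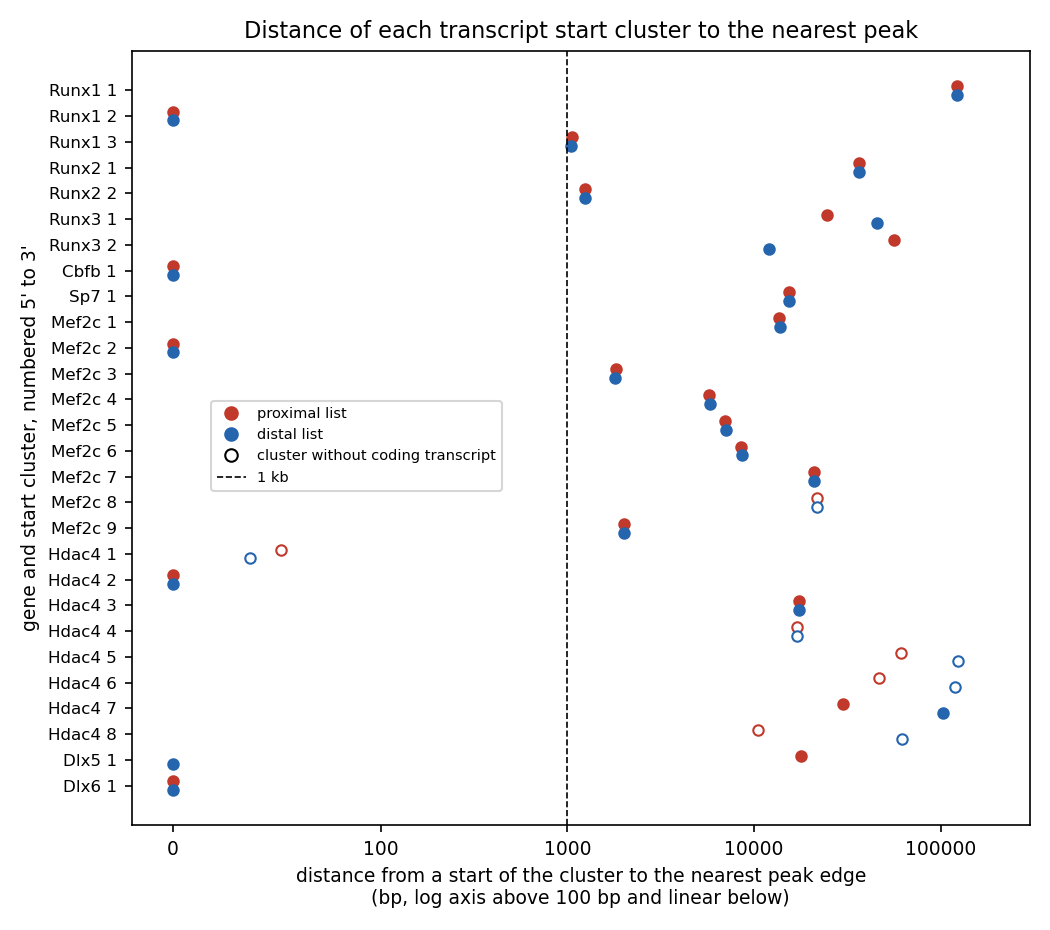
Each row is a cluster of annotated transcript starts, numbered from 5′ to 3′ within its gene, and points give its distance to the nearest peak edge in the proximal and the distal list (bp, linear to 100 and logarithmic beyond). Points at 0 are covered starts, such as Runx1 cluster 2, which is P2, while Runx1 cluster 1 has its points at 122317 and 122287 bp, both Runx2 clusters lie beyond the dashed 1 kb line, and Dlx5 has a distal point at 0 with its proximal point at 17946 bp.

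Most coding starts with a peak were rich in CpG. Starts rich in CpG (GC over 50% and an observed to expected CpG ratio over 0.6 in 1001 bp) had a peak at 87.5% of the 10433 such coding clusters of all genes, and other coding clusters had one at 19.2% of 20453. Among the coding clusters of the 9 genes, 5 of 7 that are CpG-rich and 1 of 15 others had a peak. The CpG-rich clusters without a peak were Runx2 P2 (GC 54.7%, ratio 0.909) and Runx3 P2 (GC 74.0%, ratio 0.949). Runx1 P2, with a peak, was similar in composition (GC 61.9%, ratio 0.865). The printed 250 bp upstream of Runx3 P2 hold 33 CG pairs. The distal promoters P1 were not CpG-rich, with ratios of 0.310 for Runx1, 0.164 for Runx2 and 0.361 for Runx3, and neither was the start of Sp7 (0.296). The coding cluster with a peak that is not CpG-rich was that of Mef2c, whose GC content of 46.0% lay under the limit while its CpG ratio of 0.688 lay above it. The most upstream Hdac4 cluster, which is not coding, had a peak at a GC content of 45.5% and a ratio of 0.271.

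The Runx1 regions all lay inside the gene. Besides P2, 5 were intronic and 1, the widest at 896 bp (92605533 to 92606428, shared), reached a coding exon near the 3′ end. Shared intronic regions lay in intron 5 (92653740 to 92654366), intron 6 (92620675 to 92621387) and intron 7 (92609285 to 92609724) of the 7 introns of the longest coding transcript. Both single-end regions were distal only and lay close to shared ones. A distal-only peak of 600 bp in intron 5 (92654431 to 92655030) was 184 bp from the neighbouring proximal peak, the smallest such distance among the 15 single-end regions. The other, of 353 bp (92698624 to 92698976), lay 1296 bp upstream of P2 and 986 bp from the proximal peak at P2. Runx1 had 5 proximal and 7 distal peaks in all.

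Around Runx2 there were 4 proximal and 5 distal peaks, all inside the gene. Of the 6 regions, 3 were shared. They were the region upstream of P2, a region of 685 bp near the 3′ limit of the gene (44500196 to 44500880) and the widest. The widest, of 1118 bp (44776704 to 44777821), covers the start of Supt3, which encodes a subunit of a transcriptional coactivator complex. Of the Runx2 regions, Supt3 overlaps this one only. The same region holds the peaks nearest to Runx2 P1 in both lists. The proximal-only region, of 723 bp (44768189 to 44768911), lay in intron 2 between P1 and P2, 8241 bp from the Supt3 start and 7793 bp from the nearest distal peak.

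A distal-only region of 433 bp in intron 5 of Runx2 (44709854 to 44710286) overlaps an exon of the antisense gene Runx2os2. It also lies within 1 kb of an annotated start of Runx2os2. The other distal-only region, of 403 bp (44602093 to 44602495), was the farthest from any proximal peak, at 101237 bp. It and the shared region near the 3′ limit lie beyond the coding transcripts, which end at 44604001, in an intron of a transcript annotated for nonsense-mediated decay. The sequence of this distal-only region is a tandem repeat. In its central 300 bp, printed above, 96.1% of bases equal the base 42 bp further on, and the next highest value among the 57 regions, over periods of 2 to 60 bp, was 45.3%. How uniquely its reads were placed was not analysed here.

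The Runx3 window held 3 proximal and 3 distal peaks. A proximal-only peak of 482 bp (135095583 to 135096064) lay upstream of P1, and a distal-only peak of 364 bp (135166495 to 135166858) lay in intron 4 of 5. They were 70431 bp and 69795 bp from the nearest peak of the other list. Both shared regions lay downstream of the gene, in the neighbouring Clic4, and the wider, of 871 bp (135272397 to 135273267), covered the Clic4 start. Runx3 itself therefore had no shared region inside it.

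**Figure D3:**
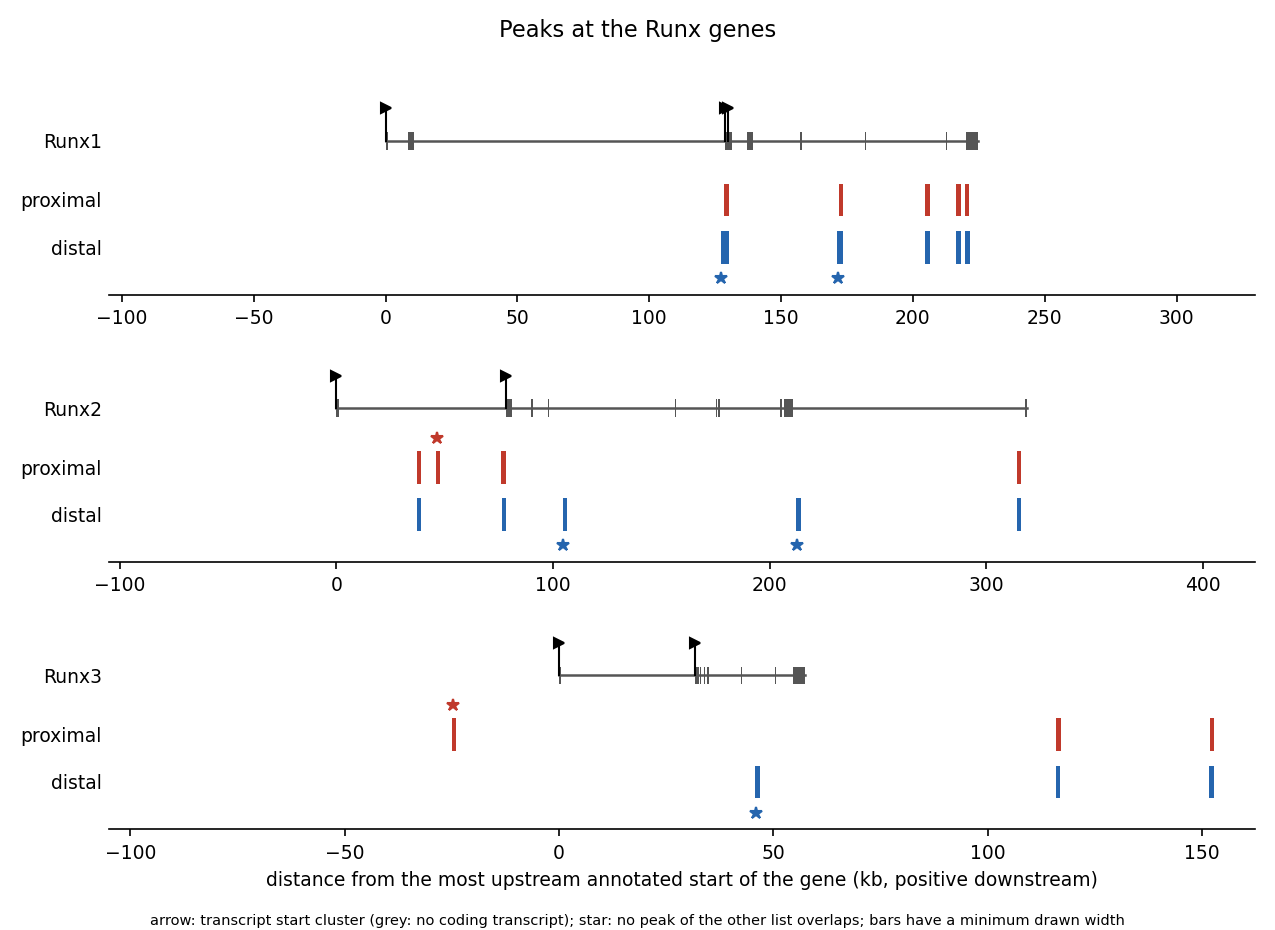
Exons (grey boxes), transcript starts (arrows) and peaks of the proximal and distal lists are drawn along each Runx gene, against the distance from its most upstream start (kb, positive downstream). The Runx1 peaks begin just upstream of P2 (129 kb) and none lies near P1 (0 kb), no Runx2 peak covers a start, and stars mark single-end peaks, 2 for Runx1, 3 for Runx2 and 2 for Runx3.

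Cbfb, the shared partner of the Runx proteins, had an open start at both ends (plus strand, chr8:105170674-105217989). The peak there was wider in the proximal list, with 1600 bp (105170123 to 105171722) against 960 bp in the distal list (105170080 to 105171039). Upstream of the gene, shared regions lay 17122 bp and 49229 bp away, and no region lay in an intron. The remaining 7 regions lay downstream, where other genes are dense, and 5 of them were shared. Distal-only peaks there were 1 of 1018 bp (105305438 to 105306455) at the start of Elmo3 and 1 of 387 bp (105279049 to 105279435) in Nol3. The Elmo3 peak was the widest of the 11 distal-only peaks.

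Sp7, the zinc-finger factor of osteoblasts, had no peak inside the gene (minus strand, chr15:102356606-102367182). Its start was 15352 bp from the nearest proximal and 15361 bp from the nearest distal peak, which lay at the start of Aaas. Of the 8 regions around it, 7 lay at starts of other genes, and the widest of all 57, at 1739 bp (102405242 to 102406980), was at the start of Sp1. A proximal-only peak of 627 bp (102331540 to 102332166) lay at the start of Myg1. The region that lay at no gene start was shared, 831 bp wide (102399380 to 102400210) and 32198 bp upstream of Sp7, though nearer to Sp1, at 5933 bp.

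Mef2c was the gene whose regions were shared throughout, 9 of 9 (plus strand, chr13:83504034-83667080), against 73.0% of all merged regions. Whether this sets the gene apart was not tested. Of its 9 start clusters only the one 19.4 kb downstream of the most upstream start, with 11 transcripts of which 9 are coding, had a peak, from 83523560 to 83525007 in the proximal list and from 83523565 to 83524999 in the distal list. The most upstream cluster, with 6 coding transcripts, was 13677 bp from the nearest proximal and 13709 bp from the nearest distal peak. Introns held 5 further regions, and 3 lay 47921, 63433 and 77644 bp downstream of the gene. The region 63433 bp away lay within 1 kb of starts of the noncoding genes C130071C03Rik and Gm26803. The region 77644 bp away lay inside C130071C03Rik. In intron 2 a region (83565713 to 83566633) was 921 bp wide in the proximal list and 299 bp wide in the distal list, the largest ratio of widths among the 42 shared regions. Another, in intron 9, measured 476 bp and 314 bp.

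Hdac4 (minus strand, chr1:91928779-92195699) had open chromatin at 2 of its 8 start clusters, at both femur ends. The coding start at 92180341, which is CpG-rich, was covered by a proximal peak of 1035 bp (92180090 to 92181124) and a distal peak of 1005 bp (92180095 to 92181099). The most upstream cluster, which has no coding transcript, had peaks 52 bp (proximal, 92195751 to 92196254) and 37 bp (distal, 92195736 to 92196278) upstream. A shared region lay in intron 2 of 26 (92130293 to 92130987). The single-end regions were a proximal-only peak of 351 bp in intron 24 (91945339 to 91945689) and a distal-only peak of 459 bp (91839400 to 91839858), 88921 bp downstream of Hdac4 and inside Twist2, which encodes a repressor of the osteoblast programme.

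Dlx5 and Dlx6 lie tail to tail on chromosome 6, Dlx6 on the plus strand (6863334 to 6868568) and Dlx5 on the minus strand (6877805 to 6882085). At the start of Dlx6 each list had a pair of peaks, the upstream one of 401 bp in the proximal and 573 bp in the distal list and the downstream one of 651 bp and 711 bp. At the start of Dlx5 the distal list had a peak of 676 bp (6881562 to 6882237), and the nearest proximal peak was 17946 bp from the start, at Dlx6. Upstream of Dlx5, distal-only peaks of 673 bp (6914854 to 6915526) and 290 bp (6942866 to 6943155) lay 32769 bp and 60781 bp from the gene. The upstream side also held a shared region 27489 bp away (6909574 to 6909978) and a shared region at the Sdhaf3 start (6955466 to 6956593, 1128 bp). The locus had 3 single-end regions, and they were in the distal list. Those of Runx1 and Cbfb, 2 each, were also distal only, that of Sp7 was proximal only, and Runx2, Runx3 and Hdac4 had both kinds. Of all merged regions, 12.9% were distal only and 14.1% proximal only, and these counts per gene are too small to give a direction.

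**Figure D4:**
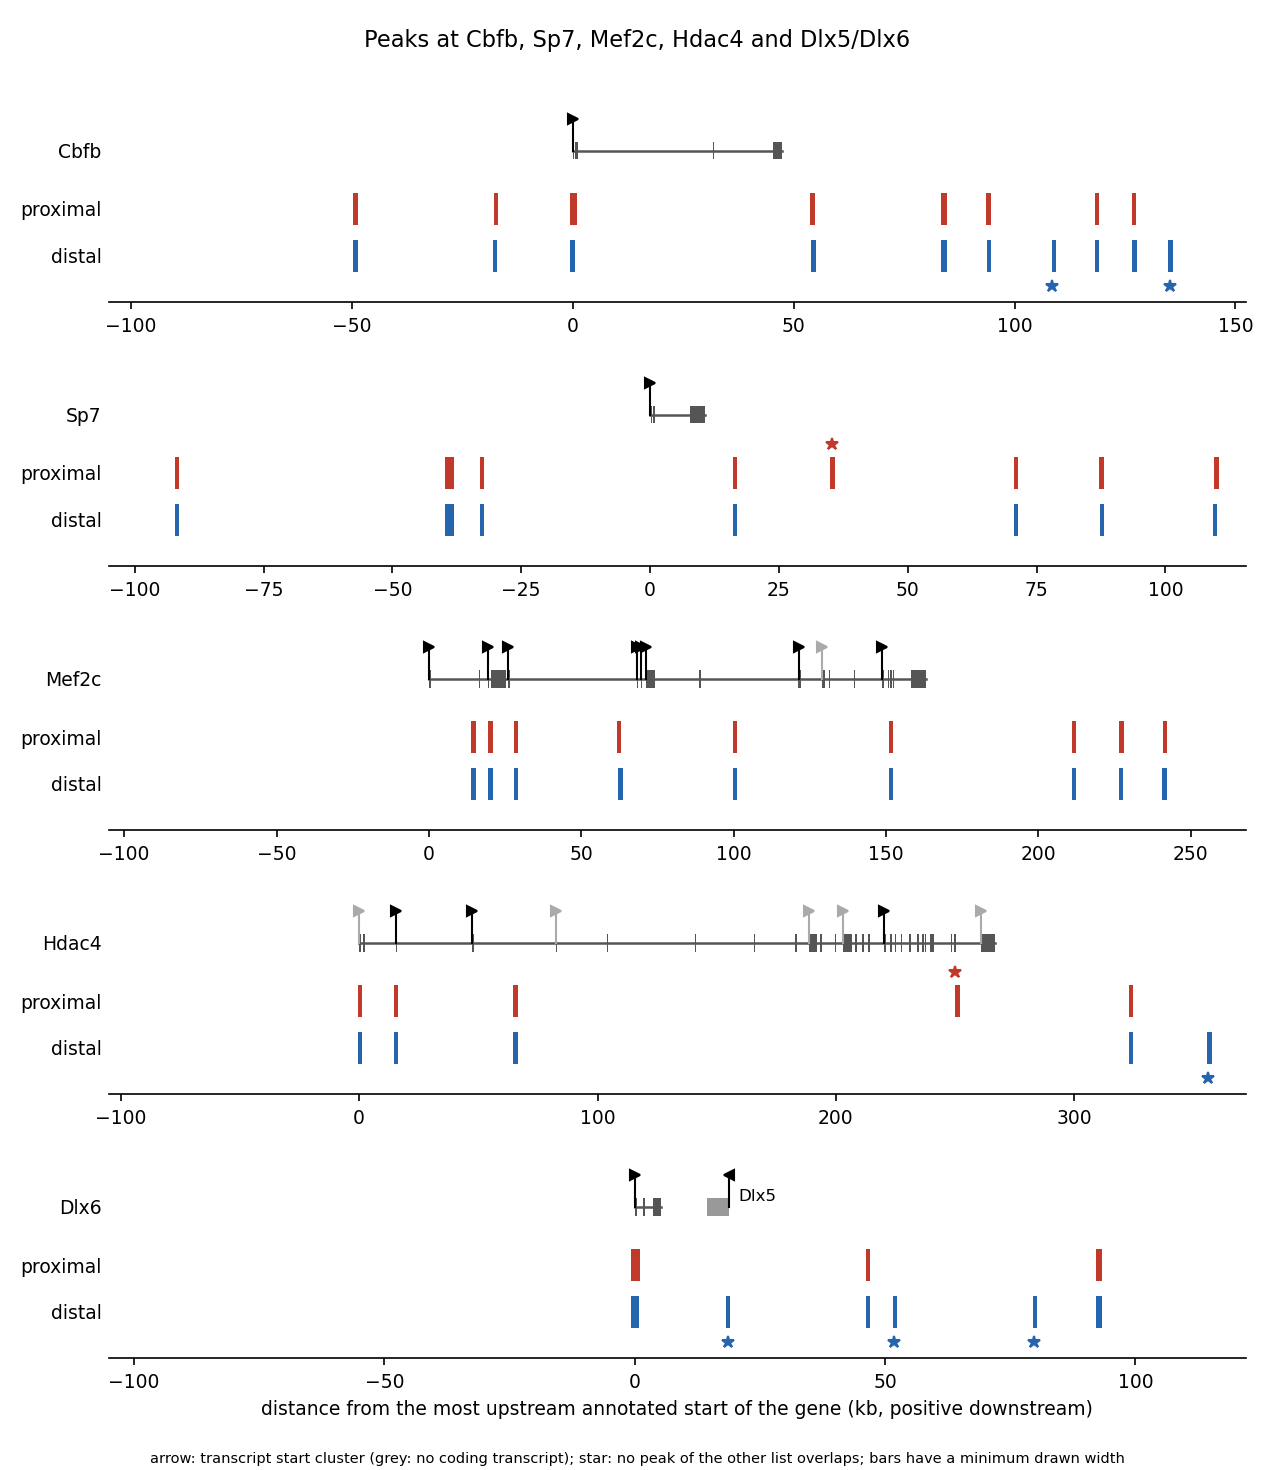
Exons, transcript starts (arrows, grey where no transcript is coding) and peaks of the proximal and distal lists are drawn for Cbfb, Sp7, Mef2c, Hdac4 and the Dlx5/Dlx6 pair, against the distance from the most upstream start (kb, positive downstream, Dlx6 for the pair). Mef2c has 9 regions and no star, which marks a single-end peak, whereas the Dlx pair has 3 stars, all in the distal list, including the Dlx5 start.

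Width was the only property of a peak that the lists give besides its position. Shared proximal peaks around the 9 genes had a median width of 716 bp (384 to 1739 bp), against 760 bp for all shared proximal peaks, and shared distal peaks one of 742 bp (299 to 1632 bp), against 735 bp. The 4 proximal-only peaks had a lower median, with a median of 554 bp (351 to 723 bp), against 510 bp for all proximal-only peaks. The 11 distal-only peaks had a median of 433 bp (290 to 1018 bp), against 497 bp for all distal-only peaks.

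**Figure D5:**
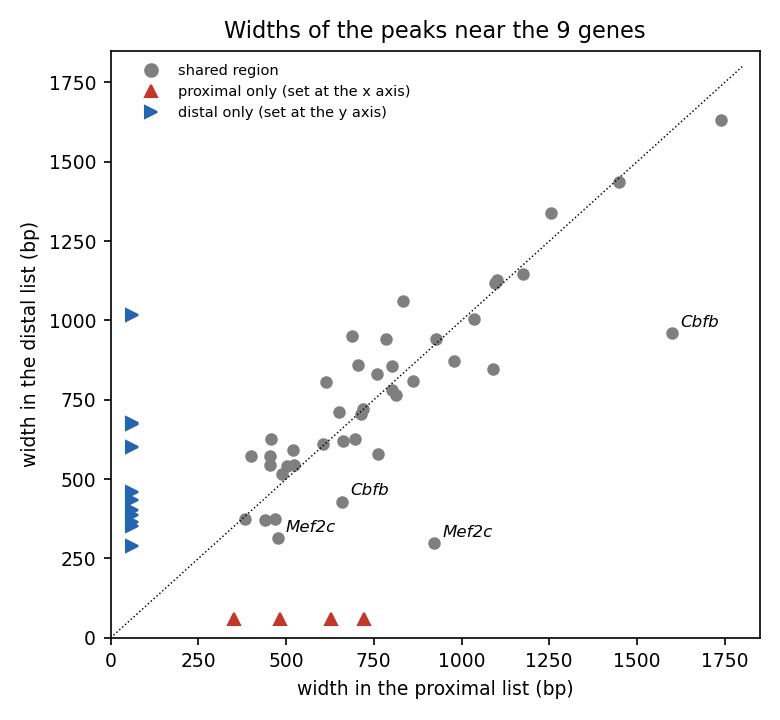
Each grey point is a shared region, placed by the width of its proximal peak (horizontal axis, bp) and of its distal peak (vertical axis, bp), and triangles at the axes are the 4 proximal-only and 11 distal-only regions. Most points lie near the dotted line of equal widths, and the named ones, whose widths differ by more than 1.5 times, include the Cbfb start (1600 and 960 bp) and a Mef2c intron (921 and 299 bp).

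Motif shares had wide intervals at this number of regions. The Runx core TGTGGT was found in the central 300 bp of 12 of the 57 regions, 21.1% (12.5% to 33.3%), against 19.5% of all regions. The AP-1 core TGANTCA was also found in 12, 21.1% (12.5% to 33.3%), against 29.8%. The GC box GGGCGG, a site of Sp factors, was in 23, 40.4% (28.6% to 53.3%), against 32.1%, the homeobox core TAATTA in 4, 7.02% (2.76% to 16.7%), against 4.59%, and the MEF2 consensus in 1, 1.75% (0.310% to 9.29%), against 2.96%. Every interval includes the share for all regions. Both strands were searched, and overlaps between motifs were not removed. The regions were also richer in GC, with a median of 59.0% (35.0% to 76.3%) against 53.0%.

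By gene, the Runx core was in 3 of the 7 regions at Dlx5 and Dlx6, in 2 of 7 at Runx1, 2 of 4 at Runx3 and 2 of 10 at Cbfb, and in 1 region each at Sp7, Mef2c and Hdac4. It was in 0 of the 6 central windows at Runx2, and AP-1 cores were in 2 of them, 1 being the region upstream of P2 printed above. The shares over all regions were 19.5% for the Runx core and 29.8% for the AP-1 core. With so few regions per gene, no gene was tested against these shares. Outside its central window, the shared Runx2 region at the Supt3 start held a Runx core. The proximal-only region upstream of Runx3 and the printed shared region in Runx1 intron 5 each held 1 Runx core and 1 AP-1 core. In the 250 bp upstream of the starts, a Runx core was present at each P1 promoter, once at Runx1, once at Runx2 and 2 times at Runx3. It was at none of the P2 promoters, nor at the further Runx1 cluster. At Cbfb, Sp7, Mef2c, Hdac4, Dlx5 and Dlx6, the only cluster with a Runx core was 1 of Hdac4 without a coding transcript. The share over the 30886 coding start clusters was 14.1%. That share was not split by CpG content, in which P1 and P2 differ, and no promoter type was tested against it. Runx2 P1 also held an AP-1 core, found at 6.53% of the coding start clusters. None of these P1 promoters had a peak in either list, and neither had the P2 promoters of Runx2 and Runx3.

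Other genes of hypertrophy and bone formation were compared with the 9 through a list of 33. A start-site peak was present at 17 of the 33, 16 in both lists and 1, Spp1 (osteopontin), in the proximal list only, against the 59.1% of coding genes given above. Among 20 further regulators, 12 had one in both lists. Those without were Hdac7, Twist2, Dlx2, Dlx3, Dlx4, Foxa2, Ihh, the hedgehog ligand of prehypertrophic cells, and Pth1r, the receptor of parathyroid hormone-related protein. Of 7 genes of hypertrophic chondrocytes, Vegfa and Phospho1 had one in both lists, and Col10a1, the collagen of hypertrophic cartilage, Mmp13, Ibsp and Alpl had none. Of 6 osteoblast genes, Col1a2 and Sparc had one in both lists, and Col1a1, Bglap (osteocalcin), Ifitm5 and Dmp1 had none. A gene without a start-site peak could still have regions inside or within 100 kb, where the median coding gene had 5.00. Col10a1 and Ibsp had 6 each, Mmp13 had 4 and Alpl had 1. Among the osteoblast genes, Bglap and Ifitm5 had 7 each, Col1a1 had 6 and Dmp1 had 4. Among the regulators, Pth1r and Dlx2 had 6 each, Hdac7 and Twist2 had 5, Foxa2 had 4, Ihh had 3, and Dlx3 and Dlx4 had 2. Whether these regions act on those genes was not tested.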

How the data were processed

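The data are ATAC-seq peak lists for the cartilage at each end of the fetal mouse femur. The authors aligned reads to mm10 (Bowtie2 2.2.8 and MACS2 2.1.1 per the labels), removed duplicates, called peaks and kept those reproducible at an IDR under 0.05. The deposited files hold peak positions only (unit: other), 1 list per end that combines 2 replicates, on autosomes. Reads and the depth after filtering were not analysed here.

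Peaks overlapping by at least 1 bp were merged. Start clusters joined starts within 1 kb of each other. A start-site peak had an edge within 1 kb of a start of any transcript. Motifs were searched in the central 300 bp of regions. Sequences and annotation were GRCm38 and GENCODE mouse release 21, read with pysam 0.24.0 in Python 3.11.15 (SciPy 1.17.1, NumPy 2.4.6, matplotlib 3.10.9), and the counts were tested on simulated data, where all planted overlaps and motifs were recovered. No test between ends was possible. The members, gene lists and alternatives were chosen with earlier results of these data known. Named regions were those at starts of the 9 genes, single-end regions and the widest region of each gene, and other genes of the list where they had no start-site peak or one in 1 list. Further regions and neighbouring genes were named to place peaks, and the tandem repeat was looked for after the sequences had been seen.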

Additional observations from a re-analysis of the deposited data

How the results depend on the processing

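The counts depend on the window, on peak width and on how regions are assigned to genes. With a window of 50 kb in place of 100 kb, 7 distal-only regions were counted. With 200 kb, there were 86 regions, 8 of them proximal only, and a median of 11 per gene. Leaving out peaks narrower than the median width of each list gave 28 regions, 20 shared and 5 distal only, 1.03 regions per 100 kb and a median of 2 per gene. Keeping only regions whose nearest coding start is that of 1 of the 9 genes gave 33 regions, 24 shared, 2 proximal only and 7 distal only, and 1.22 regions per 100 kb. The Runx start clusters with a peak, 1 at 1 kb, numbered 3 at 3 kb and 0 with wide peaks only. Searching whole regions gave a Runx core in 33.3% of them, against 38.5% of all whole regions. Of all values recomputed, 44 stayed within 1.5 times the main count or within the main interval, and 30 did not, which are those above and counts for single genes. No paired analysis was possible because each femur end has 1 list that combines its replicates, for which reason no replicate could be left out. The lists hold no depth, height or score, so weak peaks near the reproducibility threshold could not be told from strong ones, and how far single-end calls rest on that threshold was not tested.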
